A study of Mus musculus with 10 samples.

Results

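The respiratory chain subunits encoded in the nucleus were examined in livers of HFD-fed mice with and without hepatocyte overexpression of ASK1. The members were the protein-coding genes of the expression table whose names begin with Nduf followed by a, b, c, s or v and a number, Ndufab1, Sdha to Sdhd, the Uqcr genes, Cyc1, the Cox4 to Cox8 genes and the Atp5 genes. This gave 87 of the 54532 genes in the table, of which 38 belong by name to complex I, 4 to complex II, 9 to complex III, 18 to complex IV and 18 to complex V. For the genotype comparison 80 members were kept, as were 13306 genes of all kinds, because 5 or more livers held at least 10 of their reads. These were all members of complexes I, II and III, 12 of complex IV and 17 of complex V. Another 12 genes matched by name but were not annotated as protein coding, 11 of them processed pseudogenes, and were left out.

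Bulk RNA sequencing covered 10 livers, 5 labelled ASK1f/f and 5 labelled ASK1+hep. ASK1f/f mice carry murine ASK1 cDNA behind a lox-stop-lox cassette in the ROSA26 locus on a C57BL/6J background and served as controls without Cre. ASK1+hep mice carry the same construct together with Alb-Cre, which removes the stop cassette in hepatocytes. Whether all other cells of the liver keep it is not stated. Feeding with HFD began at the age of 6 weeks in both genotypes, lasted 7 weeks and ended with a fast of 5 h. The labels give each liver its own animal tag and do not give the sex. In bulk liver, fewer hepatocytes and less RNA per hepatocyte cannot be told apart.

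Libraries held 13367742 to 16163378 reads on genes, and reads on the members made up 1.24% to 1.91% of them. Hepatocyte markers were abundant, with 32863 to 49062 FPKM summed over the 7 found in the table. Map3k5, the gene of ASK1, was at 4.71 to 6.88 FPKM in 4 libraries labelled ASK1f/f and at 7.68 to 16.4 FPKM in the libraries labelled ASK1+hep, while ASK1f/f replicate 5, as labelled, reached 19.8 FPKM, which goes against that label. With all livers its log2 fold change was 0.60 ± 0.32 (SE), with an adjusted p of 0.81 by limma and an exact permutation p of 0.159 (two-sided), and without that library it was 0.92. The library labelled ASK1+hep replicate 3 stood apart from the other 9 in the member genes, and the main counts are therefore also given without it.

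The respiratory chain hands electrons from NADH and succinate to oxygen and uses the released energy to pump protons across the inner mitochondrial membrane. Complex I takes electrons from NADH and complex II from succinate, complex III passes them to cytochrome c, complex IV delivers them to oxygen, and complex V, the ATP synthase, lets protons flow back to make ATP. Complex II is encoded wholly in the nucleus, whereas the other complexes combine nuclear subunits with a few subunits encoded by mitochondrial DNA. Many nuclear members are small accessory proteins around a larger catalytic core, and their promoters are known for binding sites of NRF1, of ETS factors such as GABP, and of YY1.

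Promoters of 3 members that stood at opposite ends in ASK1+hep replicate 3 are shown, as the 250 bases before the RefSeq start site on GRCm38.p6, read 5′ to 3′ on the strand of the gene. Cox6a1 had the highest level of all members and was highest in ASK1+hep replicate 3, whereas Atp5b and Sdha, both catalytic subunits, were lowest there. Capitals mark the letters GCATGCG (NRF1), CCGGAAG (ETS family) or AAGATGG (YY1) on either strand. The Cox6a1 sequence lies at chr5:115348959-115349208 on the minus strand, that of Atp5b at chr10:128083057-128083306 on the plus strand and that of Sdha at chr13:74350241-74350490 on the minus strand.
Cox6a1: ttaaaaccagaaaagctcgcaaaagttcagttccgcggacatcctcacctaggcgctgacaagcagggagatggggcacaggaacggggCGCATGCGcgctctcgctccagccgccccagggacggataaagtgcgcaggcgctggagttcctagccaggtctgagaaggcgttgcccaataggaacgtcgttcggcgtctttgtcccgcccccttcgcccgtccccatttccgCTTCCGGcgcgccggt
Atp5b: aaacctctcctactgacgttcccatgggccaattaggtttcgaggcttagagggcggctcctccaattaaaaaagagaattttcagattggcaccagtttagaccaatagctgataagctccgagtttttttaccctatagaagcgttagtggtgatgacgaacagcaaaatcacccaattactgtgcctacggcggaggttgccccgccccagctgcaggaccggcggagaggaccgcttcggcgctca
Sdha: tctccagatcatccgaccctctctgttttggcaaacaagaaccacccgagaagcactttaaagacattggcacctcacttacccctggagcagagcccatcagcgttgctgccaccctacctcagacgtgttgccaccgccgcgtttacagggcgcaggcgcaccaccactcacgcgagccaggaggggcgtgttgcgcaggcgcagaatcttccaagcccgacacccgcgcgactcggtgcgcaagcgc
The Cox6a1 window held NRF1 letters on both strands, 161 and 160 bases before the start site and overlapping each other, and ETS letters on the reverse strand 16 bases before it. The windows of Atp5b and Sdha held none of the 3. Whether such letters go with the direction of members in that liver was not tested.

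Over windows of 300 bases (250 before and 50 after the start site), 66 tested members had a promoter in the RefSeq table. GCATGCG was found in 16.7% of them, compared with 4.01% of the 27025 genes in that table. CCGGAAG was found in 24.2% of members and in 9.93% of all genes, and AAGATGG in 16.7% and 7.28%. At least 1 of the 3 was present in 47.0% of members and 19.3% of all genes. By complex this was 14 of 33 tested members in complex I, 2 of 3 in complex II and 3 of 5 in complex III. In complexes IV and V it was 4 of 10 and 8 of 15. The members here had passed the filter on reads, whereas the genes of that table were taken whether expressed in these livers or not. Shares over the tested genes alone were not computed. These matches describe letters in a window and are not binding sites.

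The members were among the most abundant mRNAs in these livers. FPKM are reads per length of gene and size of library, and comparisons of levels between genes rest on the gene lengths in the table. The library size implied by the FPKM was 0.890 to 1.06 times the reads on genes, lowest in ASK1+hep replicate 3. The median over the 80 tested members was 79.9 FPKM, compared with 3.12 FPKM over all tested genes. Of the tested members, 76 lay above that all-gene median and 62 were among the 1000 genes with the highest level. Complex I gave 29.9% of the summed FPKM of the members, complex IV 28.4%, complex V 20.1%, complex III 17.0% and complex II 4.6%.

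The highest level was that of Cox6a1 (688 FPKM as mean of all 10 livers), followed by Cox8a (515), Atp5a1 (326), Uqcrq (322) and Cox4i1 (303). Cox6a1, Cox8a and Cox4i1 encode subunits of cytochrome c oxidase, Atp5a1 the alpha subunit of the ATP synthase and Uqcrq a small subunit of complex III. Neighbours in this order often did not differ beyond their spread, since Uqcrq ranged from 184 to 804 FPKM and Cox4i1 from 204 to 638 FPKM. The order also differed between genotypes, as Atp5a1 (342 FPKM) was above Uqcrq (249) in the control means and below it in the ASK1+hep means (309.5 and 395). With reads set against coding length in place of gene length, Uqcrq ranked 1, Cox6a1 2, Cox8a 3 and Atp5a1 17 of the 80. In complex I the order was led by Ndufa4 (206 FPKM), which is now regarded as belonging to complex IV, Ndufa2 (205) and Ndufb11 (175). In complex II it was Sdhd (157), Sdha (104), Sdhb (103) and Sdhc (48.5), although the 4 proteins are present in equal number in the complex. Sdha was above Sdhb in the control means (116 and 95.8) and below it in the ASK1+hep means (91.6 and 111).

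**Figure D1:**
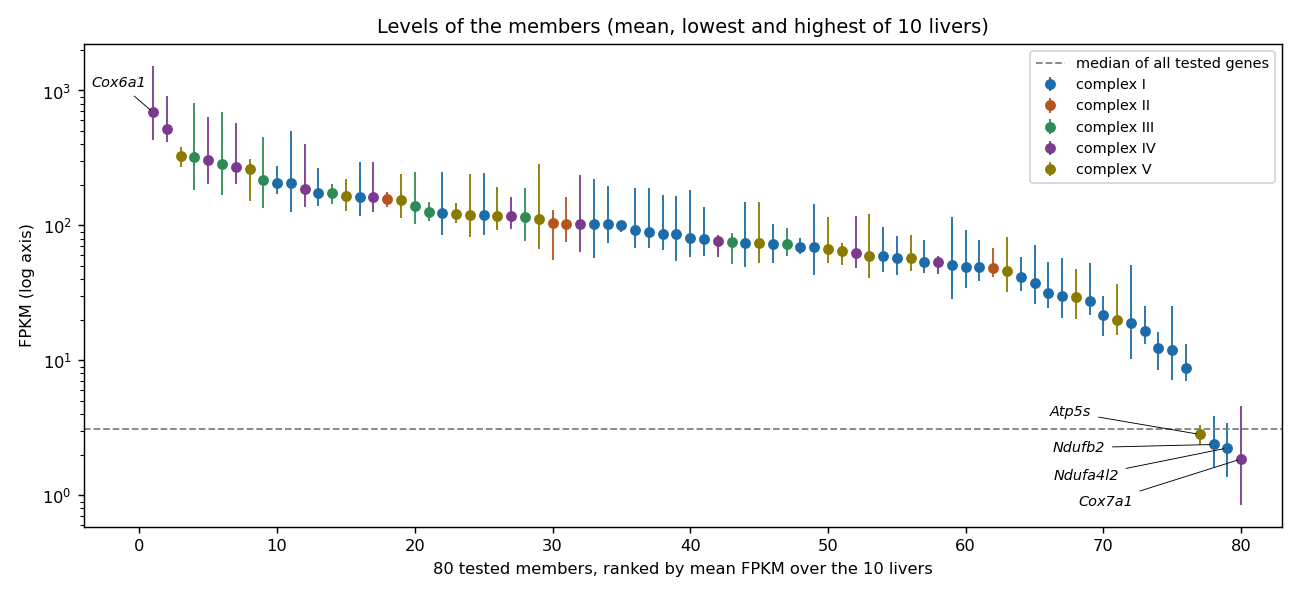
Mean FPKM of the 80 tested members over 10 livers, ranked, on a log axis, with the lowest and highest liver as vertical lines and the complex as colour. Most members lie far above the median of all tested genes (dashed, 3.12 FPKM), and Atp5s, Ndufb2, Ndufa4l2 and Cox7a1 lie below it.

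At the low end were Ndufb2 (2.38 FPKM), Ndufa4l2 (2.24), Cox7a1 (1.86) and Atp5s (2.83). The value of Ndufb2, an accessory subunit of complex I, depends on the gene length in the table of 5628 bases, which is 17.9 times its coding length of 315 bases. The same held for Atp5l, where the gene length of 6443 bases was 20.9 times the coding length, and for Ndufab1 (6883 bases, 14.7 times). FPKM of these members are therefore low for their reads, of which Atp5l had 18878 over the 10 livers.

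The isoforms known from striated muscle, testis and other tissues were almost absent, while their widely expressed partners were high. Cox6a2, Cox4i2, Cox6b2 and Cox8b had means of 0.101, 0.221, 0.350 and 0.194 FPKM, and 10 to 57 reads in all livers together. Cox7b2 and Cox8c had no read in any liver. The partners Cox6a1, Cox4i1, Cox6b1 and Cox8a were at 688, 303, 273 and 515 FPKM. Cox7a1, the muscle partner of Cox7a2, was at 0.850 to 4.61 FPKM with 146 reads in all, and it was highest in ASK1+hep replicate 3. Markers of striated muscle summed to 0.223 to 1.53 FPKM per liver, with Ckm at 0 in every liver other than ASK1+hep replicate 3, where it was at 0.0249 FPKM.

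No member passed the test between the genotypes. Of the 80 tested members, 0 passed an adjusted p of 0.05 by limma (0.0% of the 13306 genes tested did), and 0 had an unadjusted p under 0.05, compared with 5.77% of all genes. The member with the lowest p was Atp5k, with an unadjusted p of 0.0539 by limma, and the lowest exact permutation p of any member was 0.0635, for Sdha. No member had genotype groups that did not overlap (background 0.864% of genes). The direction was uneven, since 68 of the 80 members were fitted higher in ASK1+hep livers (background 48.0% of genes), with a median log2 fold change of 0.26, compared with −0.0065 over all genes tested. Without ASK1+hep replicate 3 the count was 58 (background 48.9%) and the median 0.078, and 14 members changed sign. When ASK1f/f replicate 5 was left out as well, the count was 48 (background 48.8%) and the median 0.040. With libraries scaled by all their reads 62 members were higher (background 35.2%), with a median of 0.18 against −0.052 over all genes.

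By complex, the median log2 fold change was 0.26 in complex I (35 of 38 higher), 0.28 in complex III (7 of 9), 0.35 in complex IV (11 of 12), 0.25 in complex V (13 of 17) and 0.043 in complex II (2 of 4). Without ASK1+hep replicate 3 these medians were, in the same order, 0.070, 0.059, 0.14, 0.087 and 0.0068. When libraries were scaled by all their reads, the median of complex II was −0.035 and the others stayed above 0. The standard errors of single members ran from 0.093 to 0.36 with a median of 0.20. Differences between complexes were not tested.

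**Figure D2:**
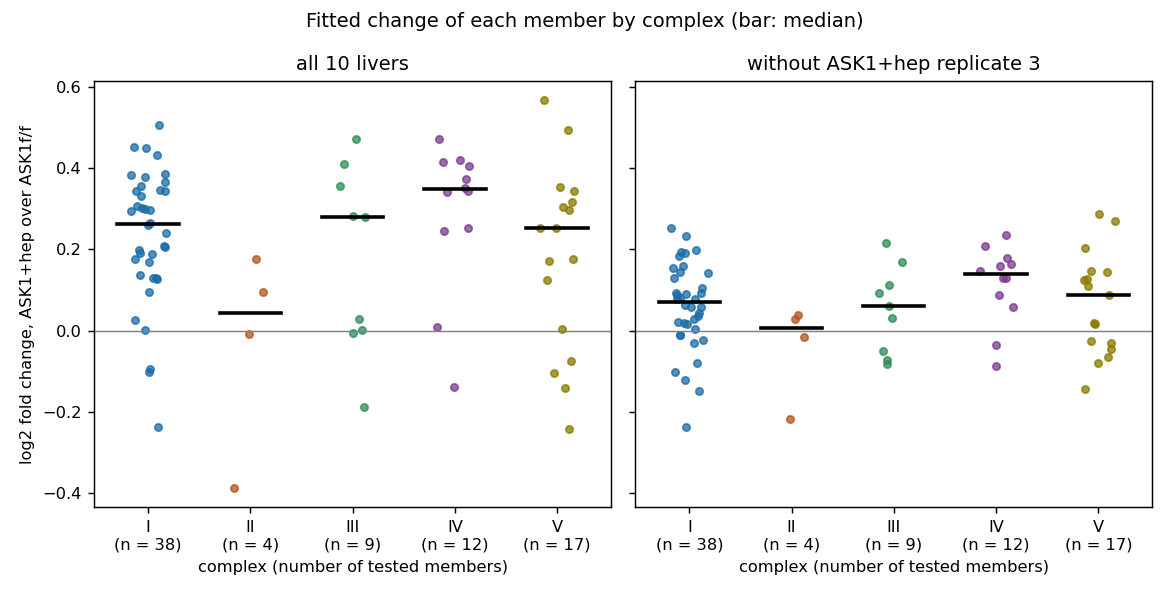
Log2 fold change of each tested member (points) between ASK1+hep and ASK1f/f livers by complex, with the median as a bar, for all 10 livers and without ASK1+hep replicate 3. The medians are 0.26, 0.043, 0.28, 0.35 and 0.25 in complexes I to V with all livers, and 0.070, 0.0068, 0.059, 0.14 and 0.087 without replicate 3.

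The spread lay among the ASK1+hep livers. In ASK1f/f livers the summed FPKM of the tested members were 7564, 8156, 8831, 8123 and 7309.6 in replicates 1 to 5. In ASK1+hep livers they were 7362, 9801, 15573, 9735 and 7221. Replicates 2 and 4 thus lay above every control liver, replicate 3 at 1.95 times the control mean, and replicates 1 and 5 within or just below the control range. Part of this was shared by all genes, whose summed FPKM in replicates 2, 3 and 4 were 1.18, 1.47 and 1.16 times the control mean, compared with 1.23, 1.95 and 1.22 times for the members. As a share of the reads on genes, the members took 1.27%, 1.43%, 1.91%, 1.47% and 1.24% in ASK1+hep replicates 1 to 5. Control livers held 1.24% to 1.49%, so that by this measure replicates 2 and 4 lay within their range. The median deviation of the members from the control mean was −0.12, 0.24, 0.99, 0.28 and −0.16 on the log2 scale in ASK1+hep replicates 1 to 5, and −0.13 to 0.15 in the 5 control livers.

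ASK1+hep replicate 3 had the highest level of all 10 livers for 67 of the 80 members (83.8%), whereas it was the highest for 26.3% of all tested genes, and it was the lowest for 7 members (background 26.1%). Replicate 5 was the lowest for 34 members (background 15.9%) and the highest for 3 (background 17.2%). Replicate 3 lay above every ASK1f/f liver for 68 members and below every one for 9. Over all tested genes these shares were 32.5% and 33.6%, compared with 85.0% of members above and 9 of 80 below. Replicate 2 was above every control liver for 50 members (62.5%, background 24.8%) and below for 9 (background 25.7%). Replicate 4 was above for 55 (68.8%, background 22.6%) and below for 3 (background 23.9%). Replicate 1 was above for 1 and below for 31 (background 14% and 14.6%), and replicate 5 above for 5 and below for 37 (background 23.1% for each). Replicates 2, 3 and 4 were all above every control liver for 45 members (56.3%, background 9.5%). Each of these positions is by FPKM and was not recounted with libraries scaled by all their reads. When ASK1+hep replicate 1 was left out, 16 members had an unadjusted p under 0.05 by limma (20%, background 8.85%), and 22 when replicate 5 was left out (27.5%, background 13.0%). Of these, 15 and 20 were higher in ASK1+hep livers, and 7 members were in both counts. No member passed the adjusted threshold in either case, although 0.00752% of all genes did without replicate 5. Leaving out ASK1f/f replicate 4, ASK1+hep replicate 2 or ASK1+hep replicate 4 gave 1 member each (background 4.31%, 4.44% and 5.01%), and leaving out ASK1+hep replicate 3 gave 0 (background 4.54%).

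Members with an unadjusted p under 0.05 were also counted with limma-voom, with the animal tags and in fewer livers. There was 1 with limma-voom (background 5.51%), 3 with quality weights added (background 7.3%, with 62 members higher against a background of 47.4%) and 2 with the prefix of the animal tag, SN or CC, as covariate (background 5.51%). The 8 livers with prefix CC alone gave 4 (background 7.11%), and the fit without ASK1f/f replicate 5 and ASK1+hep replicate 3 gave 1 (background 5.58%). No member passed the adjusted threshold in these fits, in which at most 0.0225% of all genes did.

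**Figure D3:**
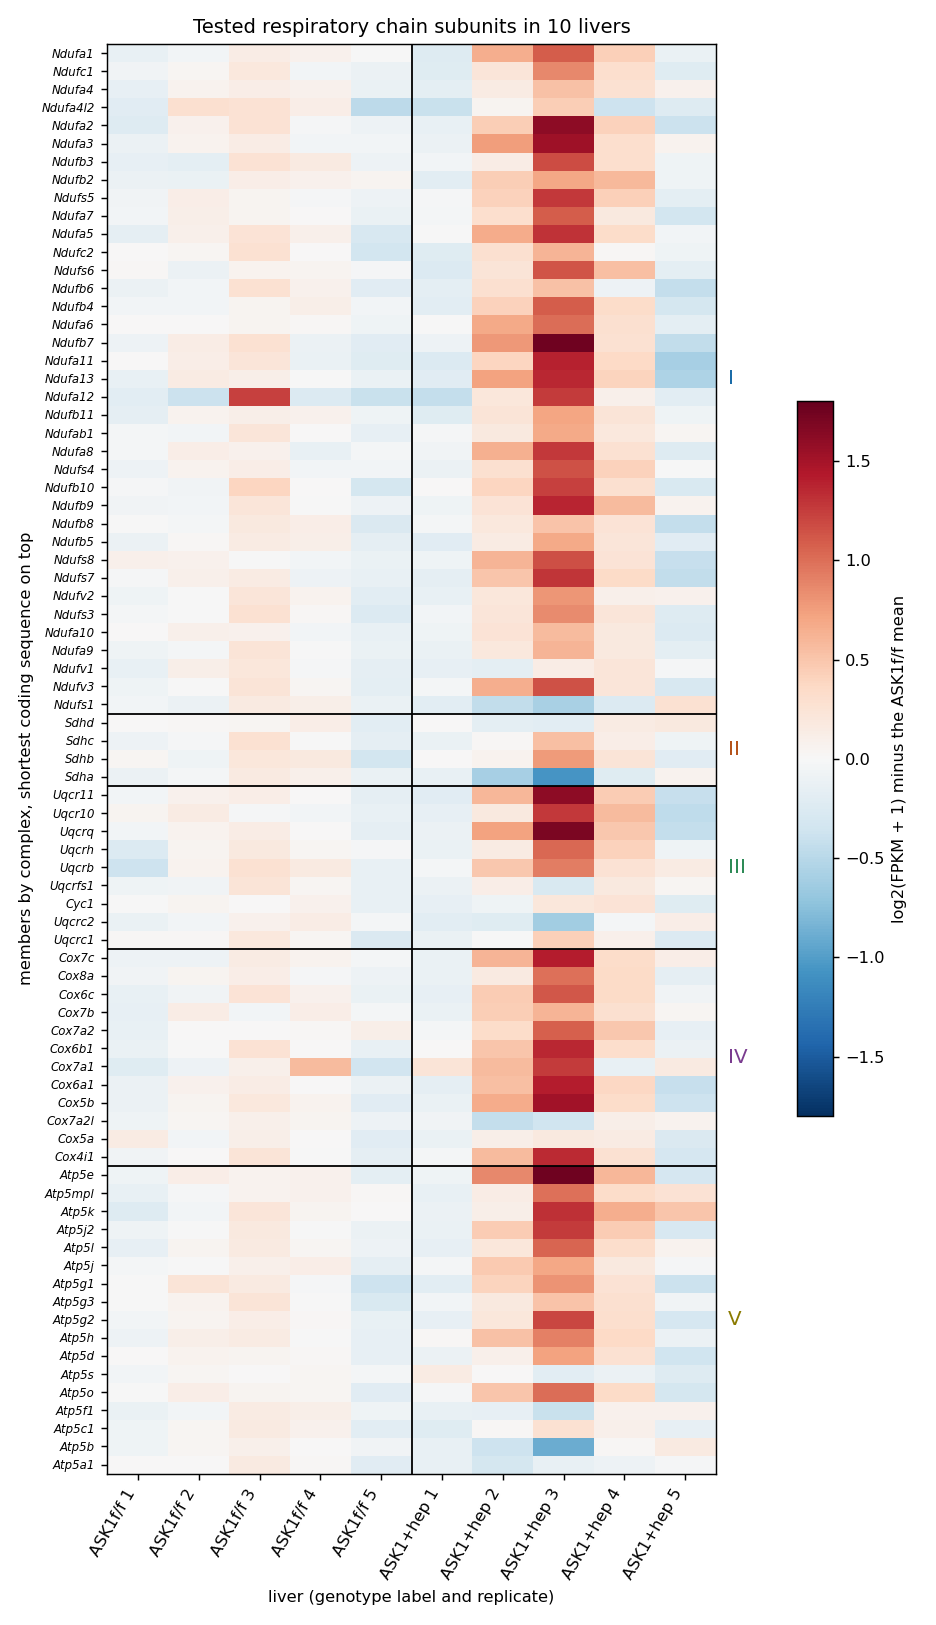
Tested members, with 1 left out (rows, by complex and coding length), in each liver (column), as log2(FPKM + 1) minus the mean of the 5 ASK1f/f livers. Most rows are red in ASK1+hep replicate 3, paler red in replicates 2 and 4 and near white or pale blue in replicates 1 and 5, and a few long members such as Sdha, Atp5b, Uqcrc2 and Ndufs1 are blue in replicate 3.

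In complex I, the members outside the catalytic core were fitted higher in 30 of 31 cases (median log2 fold change 0.29), and the 7 core subunits in 5 (median 0.20). Ndufa2, an accessory subunit of the arm that faces the matrix, was at 140.4, 175, 198, 163 and 154 FPKM in ASK1f/f livers. In ASK1+hep livers it was at 149.6, 224, 505, 219 and 126 FPKM. The ASK1+hep values enclosed the control values, with replicate 3 far above all others. The log2 fold change was 0.39 ± 0.31 (SE), with an exact permutation p of 0.357 (two-sided), and it was 0.080 without that liver. Exons of Tmco6 overlap those of Ndufa2, and reads there may be shared.

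Ndufa3 and Ndufa5, both accessory subunits, had the lowest p in complex I. Ndufa3 was at 58.3, 65.2, 68.7, 60.7 and 60.7 FPKM in controls and at 58.0, 107, 182, 77.5 and 65.1 FPKM in ASK1+hep livers, of which 3 lay above the controls. Its log2 fold change was 0.51 ± 0.26 (exact permutation p = 0.119), and 0.25 without ASK1+hep replicate 3. Ndufa5 had a mean of 60.4 ± 9.06 FPKM (SD, n = 5) in controls and 87.5 ± 37.8 FPKM in ASK1+hep livers, and its log2 fold change was 0.45 ± 0.24. The groups overlapped for both genes.

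Among the core subunits, Ndufs1, the largest subunit of the complex, was at 12.1 to 14.9 FPKM in controls and at 11.5, 9.44, 8.48, 11 and 16.3 FPKM in ASK1+hep livers, lowest in replicate 3. Ndufb7, an accessory subunit of the membrane arm, varied most of all members, with a coefficient of variation of 62.5%. It was at 12.3 to 17.7 FPKM in controls and at 13.4, 25.4, 50.7, 17.7 and 10.3 FPKM in ASK1+hep livers.

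Ndufa12, an accessory subunit, was uneven within the control group. It was at 8.63, 7.41, 24.8, 8.29 and 7.37 FPKM in ASK1f/f livers, so that replicate 3 was far above the other 4. In ASK1+hep livers it was at 7.18, 11.7, 25.3, 10.7 and 8.65 FPKM. This gene was picked for mention after its values were seen.

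In complex II, which oxidises succinate, the flavoprotein subunit Sdha had the most negative change of all members. Sdha was at 108, 114, 129, 123 and 107 FPKM in ASK1f/f livers. In ASK1+hep livers it was at 106, 76.5, 55.0, 99.2 and 121 FPKM, so that 4 of 5 lay below every control liver and replicate 5 within their range. The log2 fold change was −0.39 ± 0.19 (exact permutation p = 0.0635, two-sided), and −0.22 without replicate 3. Sdhb, the iron-sulfur subunit, went the other way in the same liver, with 162 FPKM in ASK1+hep replicate 3 and 75.3 to 109 FPKM in controls. The membrane anchors Sdhc and Sdhd had log2 fold changes of 0.094 ± 0.14 and −0.0077 ± 0.12.

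In complex III 7 of the 9 members lay above every control liver in ASK1+hep replicate 3 and 2 below. Uqcrq was at 223 to 273 FPKM in controls and at 230.2, 412, 804, 347 and 184 FPKM in ASK1+hep livers. Replicates 2, 3 and 4 lay above the controls and replicate 5 below them, and the log2 fold change was 0.47 ± 0.32 (exact permutation p = 0.246). Uqcr11 and Uqcr10, other small subunits, reached 694 and 453 FPKM in replicate 3, compared with control means of 228 and 187 FPKM. Uqcrb, the subunit with the lowest p in this complex, was at 77.3 to 121 FPKM in controls and at 97.2, 140.3, 189, 120.2 and 111 FPKM in ASK1+hep livers, which gave a log2 fold change of 0.36 ± 0.19.

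The large core proteins Uqcrc1 and Uqcrc2 lay on opposite sides of the controls in that liver. Uqcrc2 was at 73.1 to 87.3 FPKM in controls and at 69.7, 68.1, 51.4, 77.4 and 86.8 FPKM in ASK1+hep livers, with replicate 3 lowest of all. Its log2 fold change was −0.19 ± 0.14 (exact permutation p = 0.175). Uqcrc1 had a log2 fold change of 0.028 ± 0.14, with 95.5 FPKM in replicate 3 and 59.1 to 81.1 FPKM in controls. Cyc1 and Uqcrfs1, the cytochrome c1 and Rieske proteins that carry the electrons, had log2 fold changes of 0.0014 and −0.0070.

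In complex IV all 7 widely expressed members with a tissue-restricted partner, Ndufa4 included, were fitted higher in ASK1+hep livers, with a median log2 fold change of 0.34. Cox6a1 was at 531, 599.8, 624, 571 and 531 FPKM in ASK1f/f livers and at 511, 832, 1520.3, 737 and 428 FPKM in ASK1+hep livers. Replicates 2, 3 and 4 lay above every control and replicates 1 and 5 below every control. The log2 fold change was 0.35 ± 0.29 (exact permutation p = 0.341), and 0.087 without replicate 3. Cox7c, a small subunit, was at 139, 139.6, 166, 156 and 146 FPKM in controls and at 137, 228, 399, 188 and 162 FPKM in ASK1+hep livers. The log2 fold change of 0.47 ± 0.24 was the largest in the complex, with an exact permutation p of 0.103.

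Cox8a and Cox4i1 were also highest in ASK1+hep replicate 3, with 917 and 638 FPKM, compared with 431 to 498 and 225 to 297 FPKM in controls. Cox7b, another small subunit, was at 94.7 to 115 FPKM in controls and at 96.9, 144, 162, 129 and 108 FPKM in ASK1+hep livers, which gave a log2 fold change of 0.25 ± 0.15. Cox5a, a subunit bound on the matrix side, was even, at 45.5 to 58.8 FPKM in controls and 43.8 to 59.8 FPKM in ASK1+hep livers. Cox7a2l, which is known as a factor that joins complexes III and IV and not as a subunit of the enzyme, was the only tested name of the complex with a negative change. It was at 74.9 to 84.6 FPKM in controls and at 75.9, 58.7, 62.1, 85.5 and 83 FPKM in ASK1+hep livers.

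**Figure D4:**
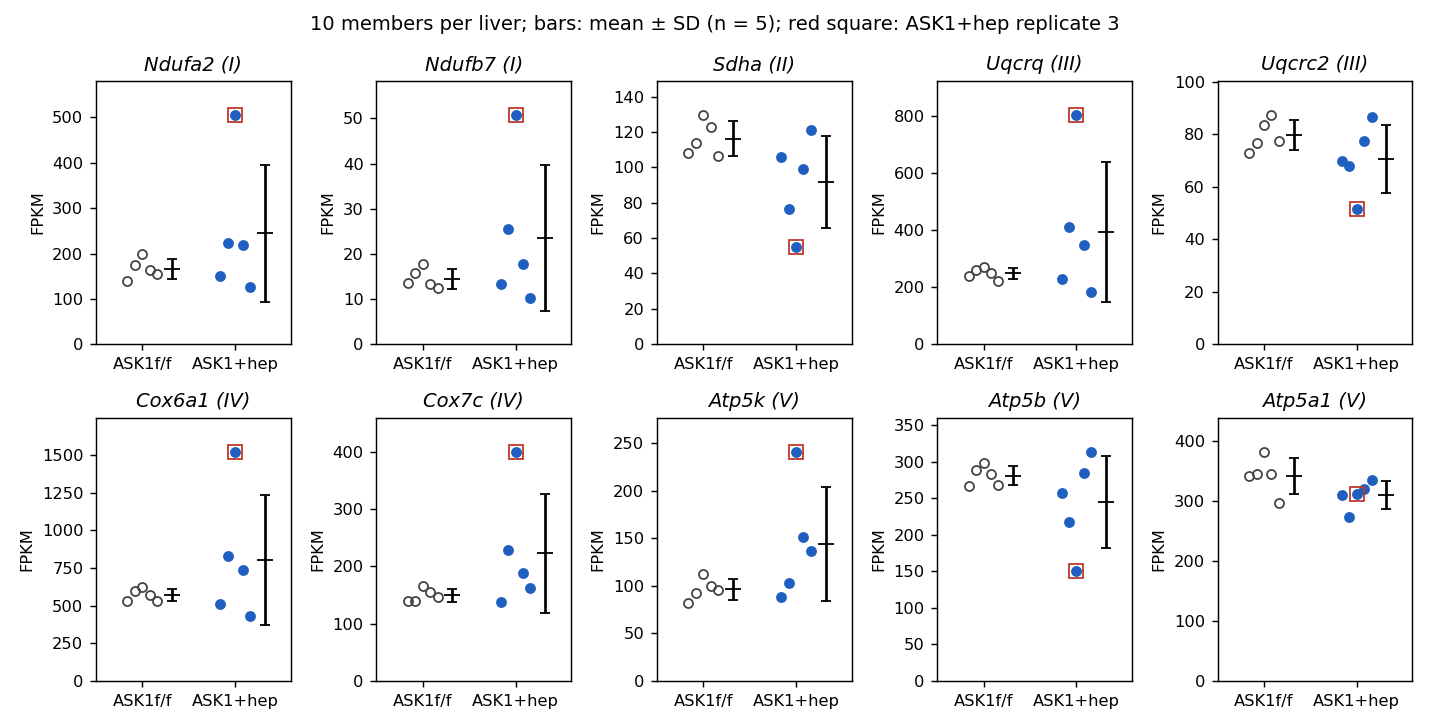
FPKM of 10 members in each liver (points), with the mean and SD of each genotype (n = 5) beside them and ASK1+hep replicate 3 marked by a red square. In replicate 3 Cox6a1 reached 1520.3, Uqcrq 804 and Ndufb7 50.7 FPKM, above all other livers, while Sdha (55.0), Uqcrc2 (51.4) and Atp5b (151) were below all of them.

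In complex V 13 of the 17 tested members lay above every control liver in ASK1+hep replicate 3 and 3 below. Atp5a1 and Atp5b, the alpha and beta subunits of the catalytic F1 head, had log2 fold changes of −0.14 ± 0.12 and −0.24 ± 0.18. Atp5b was at 267, 289, 298, 283 and 267 FPKM in controls and at 256, 217, 151, 284 and 313 FPKM in ASK1+hep livers. Replicate 3 was lowest and replicate 5 highest of all livers, whereas for Cox6a1 replicate 3 was highest and replicate 5 lowest. The exact permutation p for Atp5b was 0.270. The 5 members of the F1 head had a median of 0.0037 (3 of 5 higher), which was −0.075 when libraries were scaled by all their reads.

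Within the head the small epsilon subunit Atp5e went against the alpha and beta subunits, at 73.6 to 89.9 FPKM in controls and at 78.6, 152, 283, 126 and 66.9 FPKM in ASK1+hep livers. Atp5k, the e subunit of the membrane part, was at 81.9, 92.4, 112, 99.4 and 96.2 FPKM in controls and at 88.6, 103, 241, 151 and 137 FPKM in ASK1+hep livers, of which 3 lay above all controls. The log2 fold change was 0.49 ± 0.23 (adjusted p = 0.81 by limma), and 0.29 without replicate 3. Atp5h, the d subunit of the stalk, gave 0.34 ± 0.18, and Atp5g3, of the ring of c subunits, 0.17 ± 0.14. Atp5s, which is not a subunit of the enzyme, was at 2.79 to 3.02 FPKM in controls and 2.35 to 3.34 FPKM in ASK1+hep livers.

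The split in ASK1+hep replicate 3 went in part with coding length. The members encode short proteins, with a median coding length of 426 bases (156 to 2181), compared with 1398 bases over 11941 tested protein-coding genes. In replicate 3 the fold over the control mean had a median of 2.00 and ran from 0.474 for Sdha (coding length 1992 bases) to 3.49 for Ndufb7 (411 bases). With the members split into 3 classes by coding length, all 27 of the shortest class (up to 333 bases) lay above every control liver. In the middle class (336 to 516 bases) 24 of 26 did, and in the longest class 17 of 27. Replicate 2 lay above every control liver for 23, 19 and 8 members of these classes, and replicate 4 for 24, 20 and 11. Replicate 1 did so for 0, 0 and 1 members, and replicate 5 for 2, 1 and 2. The 9 members below every control liver in replicate 3 were Sdha, Atp5b, Ndufs1, Uqcrc2, Atp5f1, Cox7a2l, Uqcrfs1, Atp5s and Sdhd, of which 7 were in the longest class. Their transcripts held 39.0% to 51.6% GC, under the median of 51.7% over tested members. Uqcrc2 (1359 bases, 44.4% GC) was at 0.645 times the control mean, and Uqcrc1 (1440 bases, 57.5%) at 1.34 times. Low GC was also found in members that rose, such as Uqcrb (333 bases, 42.2%, 1.87 times).

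A gradient of the same direction was present in other genes of that liver. Members of the 3 length classes had a median deviation of 1.12, 1.05 and 0.52 from the control mean on the log2 scale. Tested protein-coding genes that are not members had 0.61 (305 genes), 0.39 (728) and −0.042 (10828) in the same classes of coding length. The shortest and longest classes of members had 0.45 and 0.13 in replicate 2, and 0.35 and 0.18 in replicate 4. Over all tested protein-coding genes, members included, these classes had 0.18 and −0.023, and 0.23 and −0.020. For replicates 1 and 5 these all-gene values were −0.047 and 0.00019, and −0.095 and 0.0074. In the genotype comparison the members' medians were 0.34, 0.25 and 0.096 on the log2 scale, and those of the other genes 0.14, 0.10 and −0.015. Without replicate 3 they were 0.15, 0.050 and −0.0096 for members, and 0.044, 0.041 and −0.0074 for the other genes. The classes were formed after the data were seen, and no test was made on them. Whether RNA length, GC content or RNA quality had a part in the result was not tested.

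**Figure D5:**
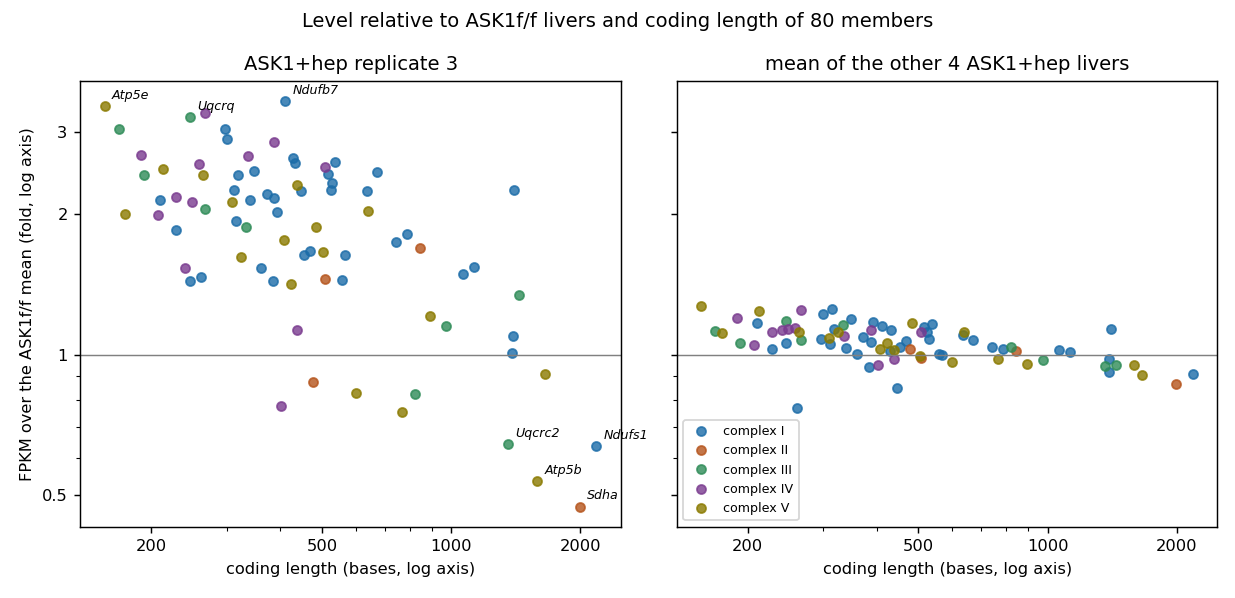
FPKM of each member relative to the ASK1f/f mean (fold, log axis) against its coding length (bases, log axis), for ASK1+hep replicate 3 and for the mean of the other 4 ASK1+hep livers. In replicate 3 Atp5e (156 bases) was at 3.40 and Sdha (1992 bases) at 0.474, with wide scatter between them. There Ndufv3 (1404 bases) was at 2.26 and Cox7b (240 bases) at 1.53. In the mean of the other 4 livers most points lie close to 1. That mean joins replicates 2 and 4, above every control liver for 50 and 55 members, with replicates 1 and 5, below for 31 and 37.

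Mitochondrial reads and adipocyte markers were also highest in this liver. Lymphocyte markers (3.83 FPKM, 1.66 to 2.69 in controls) and striated muscle markers (1.53 FPKM, 0.223 to 0.618 in controls) were low but also highest there. Markers of hepatocytes, smooth muscle and stellate cells, macrophages, endothelium, cholangiocytes and erythroid cells were not at their extreme there. Mitochondrially encoded genes took 10.9% of its reads, compared with 4.19% to 6.74% in the other 9. Adipocyte markers summed to 338 FPKM, compared with 16.3 FPKM in the lowest ASK1+hep liver and 9.44 to 219 FPKM in controls, with the highest control value in ASK1f/f replicate 5. Cfd (159.6 FPKM), Cidec (133) and Cidea (46.0) made up nearly all of the sum in replicate 3. The other 5 of the 8 markers were under 1 FPKM in every liver, with Lep at 0 in every liver and Adipoq at most at 0.0526 FPKM. Erythroid markers summed to 833 FPKM in replicate 3 (324 to 1053 in ASK1+hep livers, 333 to 490.3 in controls) and macrophage markers to 76.9 FPKM (60.1 to 149 and 93.3 to 159.6). The part of these values in the result was not tested.

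The mitochondrially encoded subunits, the partners of the members in 4 complexes, were fitted higher for 13 of 13, with a median log2 fold change of 0.52 (0.17 without ASK1+hep replicate 3). By limma, 0 had an adjusted p or an unadjusted p under 0.05. mt-Atp6, a proton channel subunit of complex V, was at 159 to 658 FPKM in controls and at 493, 433, 1166, 255 and 589.5 FPKM in ASK1+hep livers, which gave a log2 fold change of 0.86 ± 0.42. mt-Nd1 of complex I was at 3981 to 4832 FPKM in controls and at 4261, 6880.2, 11712, 4776 and 6191 FPKM in ASK1+hep livers. The order of livers was not that of the nuclear members, since the median deviation of the 13 genes was 0.50 in replicate 5 and −0.011 in replicate 4.

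Assembly factors, which build the complexes without remaining in them, went in either direction. Of 50 tested, 31 were fitted higher, with a median log2 fold change of 0.026 that was −0.020 when libraries were scaled by all their reads. Unadjusted p-values under 0.05 by limma were found for 4 (8.00%, background 5.77%), and 0 passed the adjusted threshold. Nubpl, which delivers iron-sulfur clusters to complex I, had a log2 fold change of −0.32 ± 0.11, and Sdhaf1, which matures Sdhb, 0.57 ± 0.22.

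Of 21 tested regulators of mitochondrial biogenesis, 8 were fitted higher (median log2 fold change −0.036), and 12 without ASK1+hep replicate 3 (median 0.0087). An unadjusted p under 0.05 by limma was found for 2 of the 21 with all livers (background 5.77%), and 0 passed the adjusted threshold. Pparg, a nuclear receptor of lipid storage, had the lowest p, with 2.97 ± 0.63 FPKM (SD, n = 5) in controls and 4.70 ± 1.58 FPKM in ASK1+hep livers. Esrrg, an orphan receptor known to drive oxidative genes, was low, at 0.0209 to 0.851 FPKM in controls and 0.0654 to 0.162 FPKM in ASK1+hep livers.

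Enzymes that feed electrons into the chain by other routes and the mobile carriers were fitted higher for 10 of 21 (median −0.053), and the 2 with the lowest p were lower. Prodh, which oxidises proline, had a log2 fold change of −0.35 ± 0.14, and Sqor, which oxidises sulfide, −0.33 ± 0.13. Neither passed the adjusted threshold. Genes that mark mitochondrial content, such as import and chaperone proteins, were fitted higher for 14 of 22 (median 0.039). The median was −0.020 when scaled by all reads and −0.019 without ASK1+hep replicate 3, and 0 passed. The import receptor Tomm20 had the lowest p there, with a log2 fold change of −0.30 ± 0.13, and the chaperone Hspd1 had −0.28 ± 0.14. Summed FPKM of this list were 954 to 1088 in controls and 968 to 1099.9 in ASK1+hep livers, and ASK1+hep replicate 3 was at 1.08 times the control mean, compared with 1.95 times for the members and 1.47 times for all tested genes. By median the order was another. The median deviation of the list from the control mean was 0.22 on the log2 scale in replicate 3 and −0.11 to 0.10 in controls. In replicate 3 that of the members was 0.99 and that of all tested genes −0.011.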

How the data were processed

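RNA was sequenced from 10 livers by the authors' provider, who purified poly-A RNA, cleaned the reads (fastp, per the labels), mapped them with Hisat2, counted them with FeatureCounts and deposited FPKM values per gene. Neither build nor annotation is given in the sources used here, and 81 of the 87 members had the positions of GENCODE M21 (GRCm38). FPKM multiplied by gene length were whole multiples of 1 step per library for 100% of values, within 0.000187 reads, which gave the reads behind each value. The authors tested counts with DESeq2. Here the deposited FPKM were turned into log2(FPKM + 1) and fitted by limma (version 3.58.1, R 4.3.3) with a trend of variance on level and without covariates. Benjamini-Hochberg adjustment covered 13306 genes, and 0.05 was the threshold. Genes entered with 10 or more recovered reads in 5 or more livers, after scaling to the median depth, and with 15 or more overall. Depth was 13367742 to 16163378 reads per liver. Fold changes on this scale are understated for low values. Exact permutation tests of single genes were two-sided and used all 252 divisions of the livers into 5 and 5, so that 0.00794 was the smallest p possible. The comparison was tested on simulated data. Counts of any pair of libraries differed by more than sampling noise.

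Genotypes and replicate numbers came from the labels. The members and the gene lists were chosen with earlier results of these data known. Genes named are Map3k5, in each complex the 3 members with the highest and the 2 with the lowest level and the 2 with the lowest p, isoform pairs, the member that varied most, and 2 genes per other list. The rule also took 1 member that is not reported here, although it is in the counts. Members named beyond these, for ASK1+hep replicate 3 or in the control group, were chosen after their values were seen. Whether the counting used strand is not stated, and exons of 29 tested members overlap another gene, so reads there may be shared. Coding lengths are from GENCODE M21 and promoters from RefSeq (69 of 86 members matched). Alternatives were another pseudocount, no filter or a stricter one, scaling by all reads with and without mitochondrially encoded genes, limma-voom on the reads, alone or with quality weights, the replicate number as a block, the animal tag prefix, and leaving out each liver. Leaving out 2 livers together and using the livers with tag prefix CC alone were chosen after seeing the data. Figures were drawn with matplotlib 3.10.9.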

Additional observations from a re-analysis of the deposited data

Results flagged for a closer look

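In 174 groups of 5 values (each tested member, Map3k5 and the summed FPKM of the members and of each complex, by genotype), the gap between the extreme liver and its neighbour was compared with the range of the group, with a limit of 0.71. Chance alone flags about 1 in 20 such groups, and 9 were found. ASK1+hep replicate 3 was the high value in 5 of them. Ndufa2 was at 505 FPKM there and next at 224, Ndufb3 at 169 and next at 91.9, Ndufa12 at 25.3 and next at 11.7, Ndufab1 at 13.3 and next at 9.18, and Atp5g2 at 149.8 and next at 79.9. ASK1f/f replicate 3 was high in Ndufb9 (84.4 FPKM, next 71.6) and in Ndufa12 (24.8, next 8.63). ASK1f/f replicate 5 was low in Atp5d (131 FPKM, next 147) and high in Map3k5 (19.8 FPKM, next 6.88). These genes were picked by this rule after their values were seen.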

How the results depend on the processing

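No member, named member or gene of the other lists passed an adjusted p of 0.05 by limma in any of the 21 alternatives, and the lowest adjusted p of a member was 0.383, without ASK1+hep replicate 5. The number of members with an unadjusted p under 0.05 was 0 in the reported comparison. It was 1 with limma-voom, 3 with quality weights, 2 with the animal tag prefix as covariate, 4 in the livers with tag prefix CC alone (4 against 4), 1 without ASK1f/f replicate 5 and ASK1+hep replicate 3, and 0 to 22 when 1 liver was left out. It was 0 with another pseudocount, another filter or scaling by all reads, and 8 with the replicate number as a block. Members fitted higher numbered 68, 58 to 70 when 1 liver was left out, 62 with quality weights or with scaling by all reads, and 48 without both livers, where the median log2 fold change was 0.040. Scaling by all reads gave 35.2% of all genes higher, compared with 48.0%. The cause of these shifts was not tested.

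Of 35 named members, 30 kept their direction. Without ASK1f/f replicate 5 and ASK1+hep replicate 3 the log2 fold change of Sdhb was −0.053, of Sdhc −0.055, of Uqcrc1 −0.14 and of Cox5a −0.087. Uqcrc1 was −0.051 and Cox5a −0.070 when scaled by all reads, −0.026 and −0.045 when mitochondrially encoded genes were left out of the scaling, and −0.034 and −0.0074 with quality weights. With 1 liver left out, Sdhd ran from −0.055 to 0.037, Sdhb from 0.029 to 0.27, Sdhc from −0.016 to 0.16, Uqcrc1 from −0.071 to 0.097 and Cox5a from −0.045 to 0.075.

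Livers of the 2 genotypes share replicate numbers. The correlation of the deviations of same-numbered livers was 0.074, 0.17, 0.021, 0.17 and 0.093, with a mean of 0.11, compared with −0.027 for livers of different numbers. The animal tags are neighbouring numbers in 4 of the 5 pairs, and the paper describes the controls as littermates. The labels do not say that a number marks a litter, batch or day. The correlation was positive in every pair but did not pass 0.1 in each, so that a pairing was not shown and stays possible. With the block, 8 members and 880 of all genes had an unadjusted p under 0.05, and 0 members an adjusted p under the threshold. Depth limits the low members most, since Cox7a1 rests on 146 reads over the 10 livers.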

Other observations

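The order of the ASK1+hep livers in the summed FPKM of the members was also that of Fgf21, the hepatokine gene. In replicates 1 to 5 Fgf21 was at 12.3, 25.0, 30.1, 23.4 and 7.40 FPKM, and the summed FPKM of the members were 7362, 9801, 15573, 9735 and 7221, with replicate 3 highest in both, followed by 2, 4, 1 and 5. Replicates 2 and 4 were close in the sum of the members. By the median deviation of the members from the control mean, replicate 4 (0.28) was above replicate 2 (0.24), which is not the order of Fgf21. Map3k5 was at 16.4, 11.1, 7.68, 12.4 and 15.2 FPKM in the same livers, lowest in replicate 3 and highest in replicates 1 and 5. In ASK1f/f livers Fgf21 was at 4.28, 4.74, 2.46, 2.97 and 3.21 FPKM and the members at 7564, 8156, 8831, 8123 and 7309.6, with no such order. No correlation was computed over 5 livers, and these genes were set side by side after their values were seen.

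Genes of the ATP synthase and of complex I that the names leave out gave these values. Usmg5, a small protein of the ATP synthase membrane part, was at 291 ± 33.0 FPKM (SD, n = 5) in ASK1f/f livers and 405 ± 164 FPKM in ASK1+hep livers. Atpif1, the inhibitor of the enzyme, was at 6.41 ± 0.667 and 6.94 ± 2.37 FPKM. Ndufb1-ps, which is annotated as a long non-coding RNA at chromosome 12 from 101968090 to 101977068 of GRCm38 and named after a complex I subunit, was at 21, 22.7, 26.6, 25.2 and 24.7 FPKM in ASK1f/f livers. In ASK1+hep livers it was at 22.5, 33.5, 52.1, 30.7 and 41.8 FPKM, of which 4 lay above every control (log2 fold change 0.52 ± 0.19, exact permutation p = 0.0397, adjusted p = 0.81 by limma). Without ASK1+hep replicate 3 its log2 fold change was 0.38.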
